A study of Drosophila melanogaster with 2 samples.

Results

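Small nuclear RNA (snRNA) genes are described here by the binding of the fly protein bbx (bobby sox) at their start sites. All 32 genes whose symbol begins with snRNA: were taken from the Ensembl annotation of Drosophila melanogaster, out of 18277 genes on the 7 chromosomes used. The symbols were sorted by the polymerase known to make each RNA. The class of RNA polymerase III (Pol III) held 6 genes, which were the U6 genes snRNA:U6:96Aa, snRNA:U6:96Ab and snRNA:U6:96Ac, snRNA:U6atac, snRNA:7SKa and snRNA:7SKb. The class of RNA polymerase II (Pol II) held 25 genes for U1, U2, U4, U4atac, U5, U7, U11 and U12, with U4atac placed there from textbook knowledge. The remaining gene, snRNA:LU, belongs to no class named here. A gene was called occupied when the summit of a conservative peak, one that passed the authors' comparison of both replicates by the irreproducible discovery rate (IDR), lay within 500 bp of the gene start.

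The study was a chromatin immunoprecipitation with an anti-GFP antibody on whole embryos collected from 0 to 24 h of development. The flies carried an insertion that expresses bbx, a protein with an HMG box, fused to eGFP, and 2 biological replicates formed the single group. No untreated or untagged group was analysed here, so sites and genes are compared, not conditions. Whole embryos mix all cell types of the stage range, and the sharing of a site by few or many cells cannot be told apart. The conservative set held 4753 peaks with a median pooled signal of 104.8, and the longer ranked list held 103632 peaks with a median of 18.7. Signal is the authors' enrichment value for a peak, read totals were not given, and the depth of each library is unknown.

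Most of these RNAs work in splicing. U1, U2, U4, U5 and U6 form the core of the major spliceosome, while U11, U12, U4atac and U6atac serve the minor one. U7 guides the cutting of histone messenger RNA ends, and 7SK RNA holds the elongation kinase P-TEFb in an inactive particle. In flies both polymerases start these genes from a proximal sequence element, PSEA, that is bound by the SNAPc complex, and the Pol III genes carry a TATA box in addition.

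The upstream sequences of the genes that carry the main results are printed first because they show what the classes share and where they part. Each runs from 75 bases before the start to the base before it, read from the RefSeq sequence of genome release 6 in the direction of transcription. Capitals mark every match to ATTCNCAA, a core of the PSEA in these genes, and to TATANA, which stands for the TATA box.
snRNA:7SKa (Pol III, occupied; chr3R:7474997-7475071, minus strand): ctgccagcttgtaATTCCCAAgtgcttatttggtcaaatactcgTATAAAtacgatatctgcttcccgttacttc
snRNA:U6:96Ac (Pol III, occupied; chr3R:24557140-24557214, plus strand): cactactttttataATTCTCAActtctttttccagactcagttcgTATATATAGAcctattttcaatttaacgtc
snRNA:U6:96Ab (Pol III, occupied; chr3R:24556617-24556691, plus strand): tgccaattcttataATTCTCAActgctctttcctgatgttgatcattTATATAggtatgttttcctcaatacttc
snRNA:U6:96Aa (Pol III, ranked peak only; chr3R:24556013-24556087, plus strand): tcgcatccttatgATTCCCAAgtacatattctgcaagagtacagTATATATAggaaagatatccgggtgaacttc
snRNA:U6atac (Pol III, ranked peak only; chr2L:8389649-8389723, plus strand): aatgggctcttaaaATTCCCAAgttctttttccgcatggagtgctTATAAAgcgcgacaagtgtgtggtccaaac
snRNA:7SKb (Pol III by its symbol, no summit; chr3R:23432794-23432868, plus strand): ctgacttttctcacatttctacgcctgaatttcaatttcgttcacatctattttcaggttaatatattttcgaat
snRNA:U2:34ABb (Pol II, occupied; chr2L:13215764-13215838, plus strand): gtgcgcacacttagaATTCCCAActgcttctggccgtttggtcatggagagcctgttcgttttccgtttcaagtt
snRNA:U1:95Ca (Pol II, occupied; chr3R:23859631-23859705, minus strand): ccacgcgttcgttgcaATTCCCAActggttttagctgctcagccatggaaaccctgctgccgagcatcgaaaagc
snRNA:U4:39B (Pol II, occupied; chr2L:21215179-21215253, minus strand): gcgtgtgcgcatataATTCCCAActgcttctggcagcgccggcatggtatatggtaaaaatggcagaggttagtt
snRNA:U5:63BC (Pol II, occupied; chr3L:3090726-3090800, plus strand): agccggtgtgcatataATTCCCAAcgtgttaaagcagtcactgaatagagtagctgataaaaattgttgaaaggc
snRNA:U1:21D (Pol II, occupied; chr2L:901655-901729, minus strand): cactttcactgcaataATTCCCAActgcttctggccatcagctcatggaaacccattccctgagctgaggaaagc
snRNA:U1:95Cb (Pol II, ranked peak only; chr3R:23827795-23827869, plus strand): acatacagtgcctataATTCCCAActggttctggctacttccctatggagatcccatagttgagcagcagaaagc
snRNA:U2:34ABc (Pol II, no summit; chr2L:13244562-13244636, minus strand): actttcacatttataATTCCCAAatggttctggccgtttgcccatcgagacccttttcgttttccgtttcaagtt

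The PSEA core was nearly universal and did not separate occupied from unoccupied copies. On the sense strand between -80 and -41, ATTCNCAA was found in 31 of the 32 genes and in 0.525% of all genes. It was present upstream of all 8 occupied genes and 23 of the 24 others. Its first base lay between -65 and -56, with a median of -59. The exact word ATTCCCAA stood in 26 genes, and ATTCTCAA in 5. The most shared 8-base word upstream of the genes was also ATTCCCAA, found by counting all such words. The TATA-like word TATANA, searched between -40 and -15 on the sense strand, was found in 5 of the 6 Pol III genes and in none of the 25 Pol II genes, against 9.73% of all genes. Its first base lay between -31 and -28. Only snRNA:7SKb lacked the PSEA core, and it lacked the TATA-like word as well. Its sequence was 48.9% identical to that of snRNA:7SKa, so its place in the Pol III class rests on the symbol alone. Both patterns were set after the sequences had been read. The narrower TTCCCAA, which overlaps ATTCNCAA, stood in that same upstream window of 3 of 6 Pol III genes and 23 of 25 Pol II genes, against 0.438% of all genes, and the narrower TATAAA stood at -40 to -15 in 2 of 6 and 0 of 25, against 6.55%.

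Of the 32 snRNA genes, 8 were occupied (25%, exact binomial 95% interval 11.5 to 43.4), next to 24.6% of all genes, so the share was near the background. Of the Pol III genes, 3 of 6 were occupied (interval 11.8 to 88.2%), and of the Pol II genes, 5 of 25 (interval 6.83 to 40.7%). The intervals cover counting error only and overlap widely, and the difference between the classes was not tested because copies of 1 RNA are not independent. Each of the 8 summits had the snRNA gene as its nearest gene start. Within 100 bp, 7 of the snRNA genes had a conservative summit, next to 16.4% of all genes. A summit of the ranked list, but no conservative one, lay near 17 further genes, and 7 genes had none of either kind. The 17 made up 70.8% of the 24 genes without a conservative summit, next to 61.2% of all such genes. The ranked list of replicate 2 alone did hold weak summits near all 7 remaining genes, with signals from 5.19 at snRNA:7SKb to 22.1 at snRNA:U5:34A, and that of replicate 1 held none. The share of all genes with a summit in either of these lists was not counted. These summits therefore do not set the 7 genes apart from other genes.

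**Figure D1:**
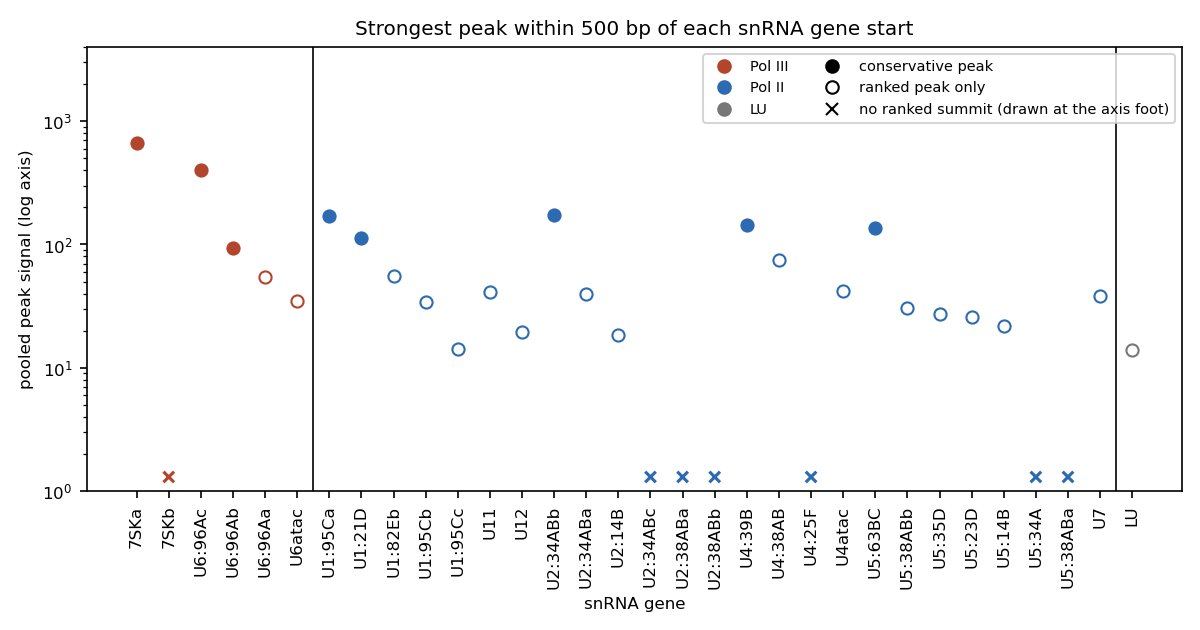
Pooled signal of the strongest peak within 500 bp of each snRNA gene start, on a log axis, with Pol III genes left, Pol II genes in the middle and LU right. Filled points are conservative peaks, open points ranked peaks only, and crosses at the foot mark the 7 genes with no ranked summit. The highest points are 7SKa at 669 and U6:96Ac at 406, and the filled Pol II points lie between 114 and 174.

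The strongest snRNA site was at snRNA:7SKa, the gene for the 7SK RNA (chromosome 3R, 7474553 to 7474996, minus strand). The peak, from 7474538 to 7475054, had a pooled signal of 669, above 98.7% of conservative peaks. Its signal was 334 in replicate 1 and 285 in replicate 2, a mean of 310 ± 35.0 (SD, n = 2). The peak covered the whole gene, and its summit lay 145 bp into it. No other annotated transcript start lay within 1000 bp of this summit, the nearest being that of CG1142 at 1070 bp. The other gene of the name, snRNA:7SKb, lay inside CG4374 on the opposite strand. It had no pooled ranked summit within 500 bp, and its nearest conservative summit was 73776 bp away.

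The 3 U6 genes stood in a row on 3R, with 1127 bp from the first start to the last, and had graded signals. The transcribed sequence was the same in all 3, and the summits lay 68 bp downstream of the start at snRNA:U6:96Ab, 70 bp at snRNA:U6:96Ac and 88 bp at snRNA:U6:96Aa. At snRNA:U6:96Ac, the last of the row, the pooled signal was 406, with 170 in replicate 1 and 230 in replicate 2 (200 ± 42.8, SD, n = 2). At snRNA:U6:96Ab in the middle it was 94.4, with 34.9 in replicate 1 and 75.8 in replicate 2 (55.4 ± 29.0, SD, n = 2). The first gene, snRNA:U6:96Aa, had only a ranked peak with a pooled signal of 55.0 and an IDR of 0.717. Its values in the authors' comparison were 6.13 and 55.4 in the 2 replicate columns, which carry no replicate number. The order of the genes was the same in both replicates, but the gap between replicates was wide at the lower 2. Both replicates ranked snRNA:U6:96Ac far above its neighbours. The lists of single replicates differed in the calls: replicate 2 alone had thresholded summits near all 3 genes, and replicate 1 alone only near snRNA:U6:96Ac. A read from inside the identical gene bodies matches all 3 copies. How the authors treated such reads is not stated in the sources read.

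**Figure D2:**
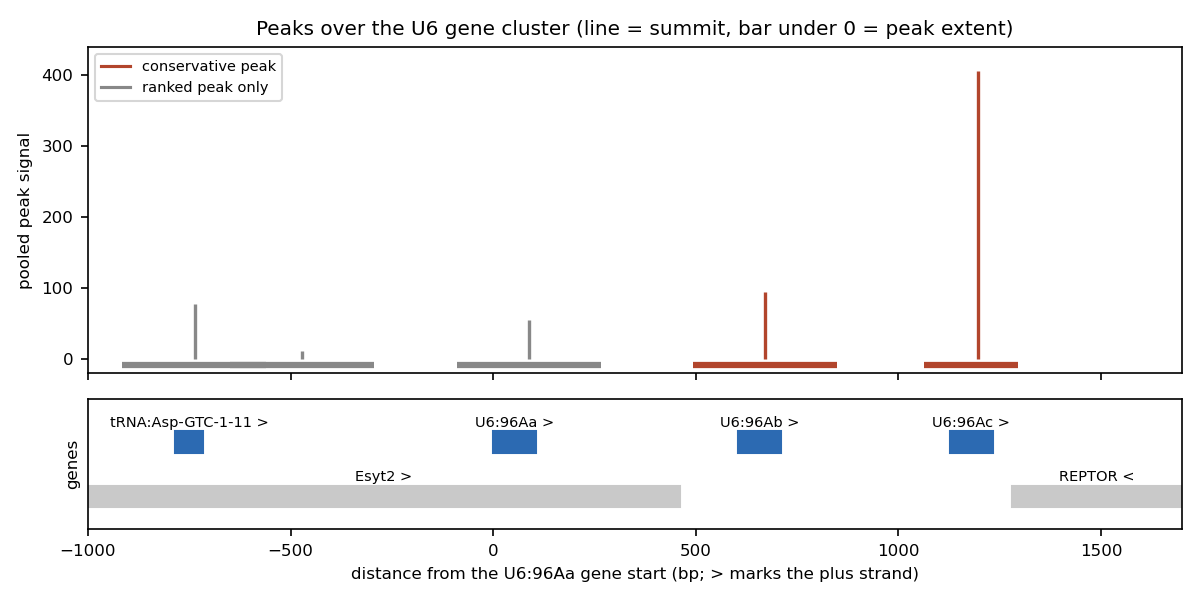
Pooled peak signal at summits over the U6 gene cluster, against distance in bp from the U6:96Aa gene start, with the genes drawn to scale underneath. Red lines are conservative summits and grey lines ranked ones. Signal at the summits over the 3 U6 genes is 55.0, 94.4 and 406 from left to right, and a ranked summit with a signal of 77.6 lies at a tRNA gene to the left.

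The last Pol III gene was that of the minor spliceosome RNA U6atac. snRNA:U6atac had a ranked peak with its summit 9 bp downstream of the start and a pooled signal of 34.8. The signal was 13.4 and 28.2 in the replicate columns, and the IDR was 0.615, above the authors' threshold of 0.01.

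Among Pol II genes, the 5 occupied copies spanned U1, U2, U4 and U5 and had similar signals, from 114 to 174. At snRNA:U2:34ABb (2L, 13215839 to 13216030, plus strand) the pooled signal was 174, with 86.9 in replicate 1 and 92.2 in replicate 2 (89.6 ± 3.76, SD, n = 2). At snRNA:U1:95Ca (3R, 23859467 to 23859630, minus strand) it was 171, with 86.0 in replicate 1 and 88.7 in replicate 2 (87.3 ± 1.88, SD, n = 2). Replicates differed least at these 2 of the 5 occupied Pol II genes.
snRNA:U4:39B (2L, 21215036 to 21215178, minus strand) had a pooled signal of 143, with 57.8 in replicate 1 and 92.7 in replicate 2 (75.2 ± 24.7, SD, n = 2). snRNA:U5:63BC (3L, 3090801 to 3090923, plus strand) had 136, with 87.5 in replicate 1 and 57.0 in replicate 2 (72.3 ± 21.6, SD, n = 2). These 2 genes were split in opposite directions by the replicates. snRNA:U1:21D (2L, 901491 to 901654, minus strand) had 114, with 57.5 in replicate 1 and 51.7 in replicate 2 (54.6 ± 4.09, SD, n = 2). Its replicate values lay below those of snRNA:U2:34ABb and snRNA:U1:95Ca, while the wide range of snRNA:U5:63BC overlapped that of each of the other genes. The median over all 8 occupied snRNA genes was 157, next to 135 for all 4503 occupied genes. By class it was 406 for the 3 Pol III genes, which ranged from 94.4 to 669, and 143 for the 5 Pol II genes.

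Copies of the same RNA differed in the signal of the strongest peak within 500 bp. Reads from stretches that copies share match more than 1 gene, and how the authors treated them is not stated in the sources read. The 5 U1 genes were 98.2% to 100% identical in the gene body, yet in the 100 bases upstream they were 60.0% to 67.6% identical. Beside the occupied pair, snRNA:U1:82Eb had a ranked peak of 55.0, snRNA:U1:95Cb one of 33.8 and snRNA:U1:95Cc one of 14.3. Their summits lay at 56, 453 and -17 bp from the start. The 6 U2 genes were 98.4% to 100% identical in the gene body. Of these, snRNA:U2:34ABb was the only one with a conservative peak, and snRNA:U2:34ABc, whose gene body has the same sequence, had no ranked summit within 500 bp. The 7 U5 genes, 78.5% to 96.1% identical, had a conservative peak at 1 copy, ranked peaks with signals from 21.9 to 30.6 at 4 copies, and no summit at snRNA:U5:34A and snRNA:U5:38ABa. The ranked summits at the 4 copies lay between -252 and 226 bp from the start. Of the 3 U4 genes, 73.8% to 94.4% identical, snRNA:U4:39B was occupied, snRNA:U4:38AB had a ranked peak of 74.4, and snRNA:U4:25F had no summit.

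Of the 17 genes with a ranked peak only, 14 were Pol II genes, as were 8 of the 10 with the highest signal. At the first 3 described the signal was far higher in replicate 2. snRNA:U4:38AB had replicate columns of 8.98 and 66.6 and an IDR of 0.714. snRNA:U1:82Eb had 18.9 and 41.6, with an IDR of 0.207. snRNA:U6:96Aa, given above, showed the same split. In the replicates' own lists, these 3 genes had a thresholded summit in replicate 2 and none in replicate 1.
snRNA:U4atac, the partner of U6atac, had a pooled signal of 41.8 with replicate columns of 19.8 and 18.3, and its summit lay 479 bp downstream. snRNA:U11, which recognises minor introns, had 40.8 with columns of 6.64 and 26.6, and its summit lay 349 bp downstream and 250 bp from the start of Fie. snRNA:U2:34ABa had 39.7 with columns of 10.1 and 31.5, and its summit was 53 bp from the start of the protein-coding gene CG15482. For these 3 genes the summit lay more than 300 bp from the snRNA start, and for the last 2 it lay nearer to the start of another gene.
snRNA:U7 had 38.4 with columns of 18.8 and 17.8, and a summit 75 bp downstream. snRNA:U6atac followed with the values above. snRNA:U1:95Cb had columns of 25.1 and 22.6 at a summit 453 bp downstream, and its IDR of 0.0318 was the lowest of the group. snRNA:U5:38ABb had a signal of 30.6, with columns of 19.4 and 18.7 and a summit 226 bp downstream. The other 7 genes had signals from 14 to 27.2. The median over the 17 genes was 33.8, next to 29.3 for the 8435 genes of the whole annotation with a ranked summit and no conservative one.

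**Figure D3:**
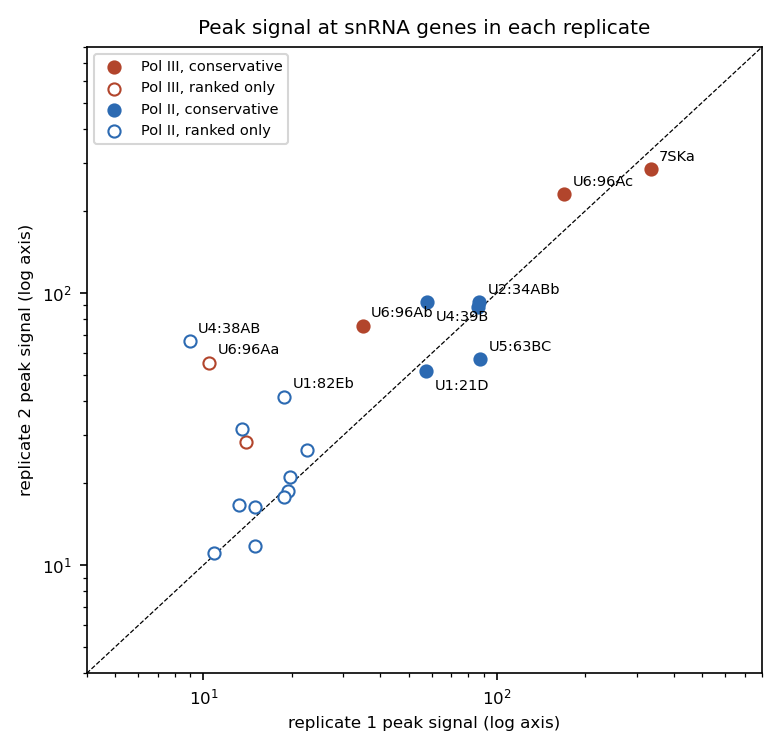
Signal of the strongest summit within 500 bp in the ranked list of replicate 1 (x axis) and of replicate 2 (y axis), both log axes, for the 21 snRNA genes with a summit in both lists, which need not be the same position. The dashed line marks equal values. Signal is higher in replicate 2 at 15 genes and in replicate 1 at 6, and U4:38AB, U6:96Aa and U1:82Eb stand above the line. The same count over all genes was not made, and the scaling of each list is not stated.

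Calls in the single replicates overlapped in part. Replicate 1 alone gave 7 occupied snRNA genes (24.4% of all genes were occupied), and replicate 2 alone gave 9 (19.2% of all genes). Both lists held 5 of them, which were snRNA:7SKa, snRNA:U6:96Ac, snRNA:U1:95Ca, snRNA:U2:34ABb and snRNA:U4:39B. Replicate 1 alone added snRNA:U1:21D and snRNA:U5:63BC. Replicate 2 alone added snRNA:U6:96Aa, snRNA:U6:96Ab, snRNA:U1:82Eb and snRNA:U4:38AB. The series' other thresholded set held 11 snRNA genes (27.7% of all genes). Its 3 additions were snRNA:U1:82Eb, snRNA:U2:34ABa and snRNA:U4:38AB, or 12.5% of the snRNA genes without a conservative summit next to 5.46% of all such genes.

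The summits sat in different places in the classes. At the 3 occupied Pol III genes they lay 68, 70 and 145 bp downstream of the start, inside the transcribed region. At the 5 occupied Pol II genes they lay between -57 and 14 bp, so the classes did not overlap. Of all 4503 occupied genes, 16.2% had their strongest summit at least 50 bp downstream, and the median position was -35 bp. At the 179 occupied tRNA genes, also made by Pol III, the median was 41 bp and 38.5% were at least 50 bp downstream. In single replicates and among weaker peaks the positions of the classes overlapped. At snRNA:U1:95Ca the summit was at -14 bp in replicate 1 and at 70 bp in replicate 2. At snRNA:U6:96Ac it was at 55 bp and 62 bp, and at snRNA:7SKa at 118 bp and 148 bp, in replicates 1 and 2. The ranked-only Pol II summits within 100 bp of a start included snRNA:U4:38AB at 71 bp and snRNA:U1:82Eb at 56 bp, and the Pol III gene snRNA:U6atac had its summit at 9 bp. Of the 8 peaks, 5 had the same width of 356 bp with the summit at their centre.

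**Figure D4:**
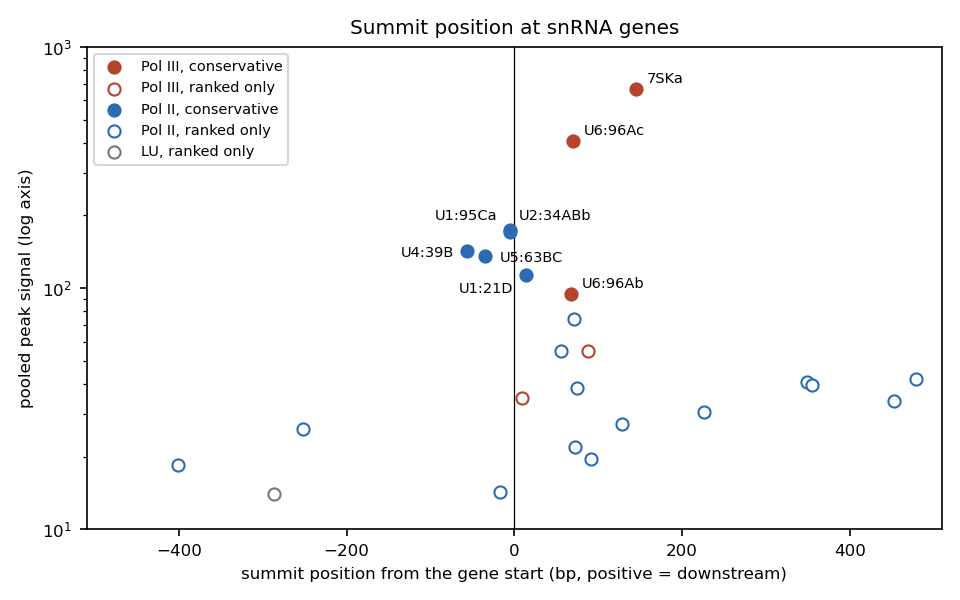
Pooled signal (log axis) of the strongest peak near each snRNA gene against the position of its summit in bp from the gene start, positive being downstream. Filled red Pol III points lie at 68, 70 and 145 bp, and filled blue Pol II points lie between -57 and 14 bp. Open points, with ranked peaks only, are scattered over the window.

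Many snRNA genes sit within other genes. Of the 17 snRNA genes that lay wholly inside another annotated gene, on either strand, only snRNA:U4:39B, inside Atg18b, was occupied (5.88%). Of the 15 that did not, 7 were occupied (46.7%). Over all genes the shares were 11.7% of 3814 genes inside another gene and 28.1% of the 14463 others. The hosts included sick for 5 genes of the U2, U4 and U5 cluster at 38AB, CG34355 for snRNA:U1:95Cb and snRNA:U1:95Cc, FASN2 for snRNA:U5:23D and snRNA:LU, Eip63E for snRNA:U7 and cno for snRNA:U4atac. Clustered copies share a host, so these genes are not independent, and the difference was not tested.

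Uniqueness of the sequence differed between copies. For each gene, words of 50 bases were taken every 10 bp within 500 bp of the start, and the share found once in the whole assembly was counted. The share was below 80% at 4 snRNA genes: 49.5% at snRNA:U2:38ABa, 51.5% at snRNA:U2:38ABb, 53.5% at snRNA:U2:34ABc and 76.2% at snRNA:U5:34A. None of these 4 had a pooled ranked summit. The other 3 genes with no summit, snRNA:7SKb, snRNA:U4:25F and snRNA:U5:38ABa, had shares of 100%, 100% and 96%. Over the 8 occupied genes the share ran from 83.2% to 100%, with a median of 91.1%, and over the 24 others from 49.5% to 100%, with a median of 95%. With words of 36 bases the values for the first 3 genes were 48.5%, 49.5% and 49.5%, and with 100 bases 57.4%, 61.4% and 68.3%. For 50-base words starting within 100 bp of the gene start the order differed. The lowest share, 38.1%, was then at the occupied gene snRNA:U2:34ABb. The 4 genes named first had 47.6% at snRNA:U2:38ABa, 47.6% at snRNA:U2:38ABb, 57.1% at snRNA:U2:34ABc and 76.2% at snRNA:U5:34A. The part of repeated sequence in the missing peaks was not tested, and the length of the reads is not stated.

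**Figure D5:**
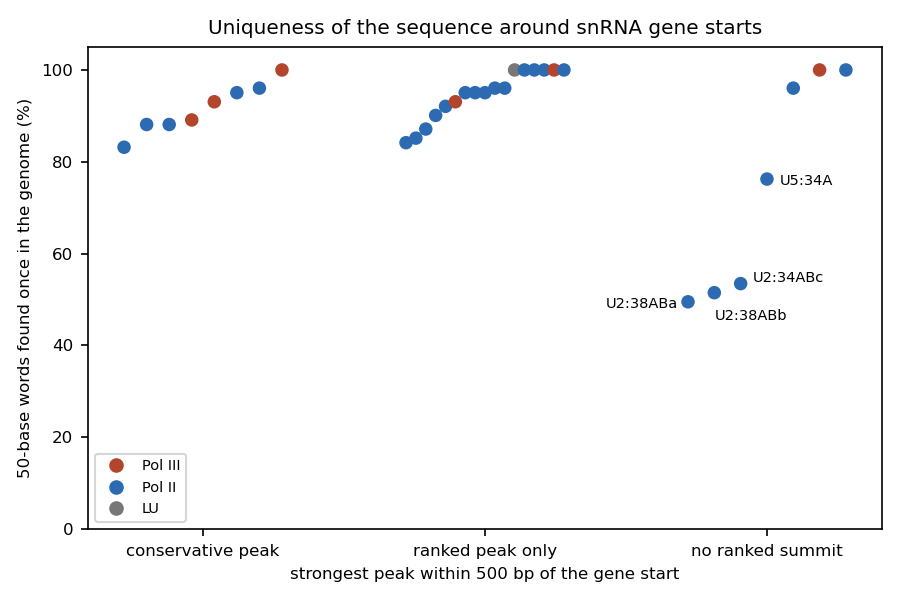
Share of 50-base words within 500 bp of each snRNA gene start that occur once in the genome (y axis, percent), by the kind of peak at the gene; points are genes, spread sideways for legibility. The 4 genes below 80% are U2:38ABa, U2:38ABb, U2:34ABc and U5:34A, all with no ranked summit.

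Near the limits of the rule, the values were as follows. Inside the IDR threshold, the weakest occupied gene was snRNA:U6:96Ab with an IDR of 0.0022, and outside it the nearest was snRNA:U1:95Cb at 0.0318. Beyond 500 bp, the next conservative summits were 581 bp from snRNA:U5:35D, where a peak of 126 sat at the start of Mtr4, 672 bp from snRNA:U6:96Aa, where the peak was that of snRNA:U6:96Ab, and 976 bp from snRNA:U5:38ABb, with a signal of 78.0. The other genes without a conservative summit were at least 1585 bp from one.

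Genes for other small RNAs, among them the Pol III products tRNA, 5S and 7SL RNA, gave mixed values. Of 295 tRNA genes, 179 were occupied (60.7%), with a median signal of 194. The gene for the RNA of RNase MRP, which processes ribosomal RNA, had a conservative peak with a signal of 181 and a summit 56 bp downstream. The gene for the RNA of RNase P, which trims tRNA ends, had a ranked peak of 27.5 and no conservative one. None of the 100 5S ribosomal RNA genes was occupied, though 6 had a ranked summit, and neither of the 2 genes for 7SL RNA, the core of the signal recognition particle, had a ranked summit. The 5S genes are near-identical repeats, and the part of this in their missing peaks was not tested. Of the snoRNA genes, which serve the modification of other RNAs, 12.3% were occupied.

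Genes for the proteins that transcribe, process and package snRNAs were occupied in 18 of 38 cases (47.4%), next to 29.0% of all protein-coding genes. This difference was not tested. All 3 genes for subunits of SNAPc, the PSEA-binding complex, carried a peak, with pooled signals of 305 at Pbp49 (replicate columns 201 and 103), 132 at Pbp95 (81.6 and 50.9) and 78.5 at Pbp45 (33.3 and 34.5). Integrator, the complex that cuts the 3' ends of Pol II snRNAs, gave 3 of 14: IntS8 at 505 (257 ± 57.0, SD, n = 2), IntS4 at 236 and asun at 179. IntS1 and IntS10 were among its members with no summit. Of the genes of the 7SK particle and of P-TEFb, the kinase it holds, 3 of 5 were occupied: CycT and Cdk9, the subunits of the kinase, had 341 and 212, and Larp7, which binds 7SK RNA, had 112. Hexim, the inhibitor in the particle, and bin3, which caps 7SK RNA, had no summit. Among the remaining genes, La, whose product binds the ends of new Pol III transcripts, had a signal of 380 with its summit at -379 bp from the start, and Smn, needed to load Sm proteins on snRNAs, had 249. Eaf, Gem2 and Gem3 had no summit. By group, export and assembly genes, which include Smn, Gem2 and Gem3, gave 1 of 5. The little elongation complex, which includes Eaf, gave 3 of 4, and the U7 particle gave 2 of 2. Within that elongation complex, the summit at Su(Tpl) lay 398 bp downstream of the start. Of the 4 genes for TBP-family proteins and parts of the Pol III initiation factor TFIIIB, Brf and Bdp1 had 77.0 and 71.0, and Tbp and Trf had no summit. The summits at Brf and Bdp1 lay at -137 and -426 bp. Whether another gene start lay nearer to the summits of these protein genes is not given here. Pbp95, Pbp45, Larp7, bin3, Su(Tpl), Brf, Bdp1, Tbp and Trf were named after their values were seen.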

How the data were processed

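Peak lists from chromatin immunoprecipitation of bbx-eGFP in 2 biological replicates were used as deposited. Per the deposited text files, the authors called peaks on dm6 alignments against a control alignment and compared them by IDR. No source read here names the caller or aligner. The deposited signal is the authors' enrichment per peak, with unstated scaling. The deposited score is the authors' rescaled IDR. The deposited -log10 columns hold the q value and the IDR. Conservative peaks had an IDR of at most 0.01. Fragments were 200 to 800 bp, per the labels.

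No peak ran past its chromosome's end in genome release 6. Gene starts are the 5' ends of genes in Ensembl release 115, without transposable elements. Positions are 1-based. The members and lists were chosen with earlier results of these data known, and no test was run, since there is 1 group and genes are not replicates. Named were all occupied members, the 10 strongest ranked-only members, and up to 8 occupied and 6 unoccupied genes of the protein list, which needed 1 older symbol (Ell, now Su(Tpl)). The occupancy search was tested on simulated data. Software was Python 3.11.15, NumPy 2.4.6, pandas 2.3.3, SciPy 1.17.1, Biopython 1.88 and Matplotlib 3.10.9. The transcribed sequence of the U6 genes is not reported here.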

Additional observations from a re-analysis of the deposited data

How the results depend on the processing

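The count of 8 occupied snRNA genes ranged from 7 to 11 and the Pol III count of 3 from 2 to 4 over the alternatives tried. The Pol II count of 5 was 8 with the series' other thresholded set, and from 5 to 7 elsewhere. The 17 genes with a ranked peak only were 19 with the series' other ranked list. Of the 24 genes without a summit in the pooled conservative set, 13 had one in the ranked list of replicate 1 and 23 in that of replicate 2. The 7 genes with no summit were 11 in the ranked list of replicate 1 and 1, snRNA:U5:23D, in that of replicate 2. The share of all genes with a summit in these single-replicate ranked lists was not counted. The median signal of 157 at occupied members was 136 with the series' other thresholded set. It was 171 at an IDR of at most 0.001, and 143 at an IDR of at most 0.05 and at distances of 1000 and 100 bp. It was 86.9 to 88.7 with 1 replicate left out, on the scale of single-replicate lists. The share of all genes occupied, 24.6%, was 27.7% with the other set, 17.6% at an IDR of at most 0.001 and 30.1% at 0.05. It was 19.8%, 28.3% and 16.4% at 200, 1000 and 100 bp, and 19.2% to 24.4% with 1 replicate left out. By peak overlap it was 23.9% with the gene body and 26.1% with 500 bp to either side, and 26% with any transcript start. The 100 bp distance and the assignment of each summit to its nearest gene start, which left all 8 genes occupied, were chosen after seeing the data. No paired analysis was possible because the replicates form 1 group. Depth is unknown, so a missing peak does not show absent binding.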

Other observations

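Outside the snRNA genes, 65 genes carried ATTCNCAA between -80 and -41 on the sense strand, and 21 of them were occupied (32.3%), next to 24.6% of all genes. By kind, 9 of 26 protein-coding genes, 6 of 25 noncoding RNA genes, 1 of 2 tRNA genes and 0 of 6 pseudogenes were occupied. The noncoding genes mir-34 and FBtr0304500_df_nrg on 3R had the same signal of 72.7, at -286 and -302 bp. The genes are thus not all independent, and the difference from all genes was not tested. Of 6 snoRNA genes, 5 were occupied, next to 12.3% of all snoRNA genes: snoRNA:U3:54Ab (509), snoRNA:Me28S-G3081a (119), snoRNA:U3:54Aa (91.6), snoRNA:U3:9B (72.4) and snoRNA:Me18S-A1806 (54.1), given as pooled signal. U3 snoRNA guides the first cuts of ribosomal RNA. The summits at the snoRNA:U3:54Ab, snoRNA:U3:54Aa and snoRNA:Me28S-G3081a genes lay at -220, -328 and -158 bp from the start. Those of snoRNA:U3:9B and snoRNA:Me18S-A1806 lay 57 and 81 bp downstream. Whether another gene start lay nearer to these summits is not given here. The RNase MRP gene was also one of the 65. These genes were named after their values were seen.

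In the window from 250 bases before to 50 after the start, on both strands, ATCGATA, a part of the DNA replication-related element, stood at 1 of 32 snRNA genes, next to 15.1% of all genes. The SOX-type word AACAAT stood at 5 of 32 (15.6%), next to 31.2% of all genes. Of the 8 occupied snRNA genes, 1 held the first word and 3 the second.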
